A study of Homo sapiens with 63 samples.

Results

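The mRNAs of 10 proteins that fold secretory proteins in the endoplasmic reticulum, or that belong to the response to misfolded protein there, were followed through sedimentation gradients of HEK293 lysates. They are HSPA5, HSP90B1, PDIA3, PDIA4, PDIA6, CALR, CANX, XBP1, HERPUD1 and DNAJB9. They were taken by a list of symbols, written with earlier results of these data known, and all 10 were found among 11074 genes in the table. HEK293 is an established human embryonic kidney cell line. Cells were kept without serum for 2 h, kept for 1 h in a balanced salt solution with vitamins and serum but no amino acids, or left in log phase in complete medium. All 3 groups were grown in serum-containing medium, and all received cycloheximide, which holds ribosomes on mRNA, before lysis with a mild detergent. Each lysate was spread over 1 gradient, and polyadenylated RNA of fractions 3 to 22 was sequenced, giving 20 libraries a condition and 60 in all.

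With 1 gradient per condition there is no spread between replicates, so differences are described by size and by whether odd-numbered and even-numbered fractions of a gradient show them apart, with no test. Whether fraction 3 or fraction 22 is the heavy end is not stated, and places are named by fraction number alone. Of 5 genes checked as marks of the line, NEFM had a level of 507 without serum, 458 without amino acids and 346 in log phase, and NEFL had 269, 288 and 380 in the same order. INA was lower, at 2.01, 1.68 and 2.51, and PAX2 and LHX1 were not among the 11074 genes. Total signal of the 11074 genes was 163126000 without serum, 183268000 without amino acids and 390572000 in log phase, and single fractions held between 36830 and 66981600. The authors' scale of each fraction is unknown, so these totals cannot be read as amounts of RNA. HSPA5 lies on chromosome 9 from 125234853 to 125241343 in GRCh38.p14, CANX on chromosome 5 from 179678656 to 179731641, HERPUD1 on chromosome 16 from 56932142 to 56944864 and XBP1 on chromosome 22 from 28794560 to 28800569.

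Secretory proteins are made by ribosomes bound to the endoplasmic reticulum and fold in its lumen with the help of chaperones. Misfolded protein in the lumen activates the sensors IRE1, PERK and ATF6. IRE1 starts the splicing of XBP1 mRNA into the form that encodes an active transcription factor, and XBP1 and cleaved ATF6 then switch on chaperone genes through promoter elements known as ERSE. HSPA5, also called BiP or GRP78, is the Hsp70 of the lumen. HSP90B1, or GRP94, is its Hsp90, and DNAJB9 is a J-domain partner of HSPA5. PDIA3, PDIA4 and PDIA6 are disulfide isomerases. CALR and CANX are the lectin chaperones that hold sugar-tagged glycoproteins, CALR as a free protein of the lumen and CANX anchored in the membrane. HERPUD1 is a membrane protein of the pathway that sends misfolded proteins to the proteasome.

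The promoter letters shared by these genes are shown first. The genes were listed as chaperones and as members of the response that acts through ERSE. Matches among them are therefore a description and not an independent result. RefSeq promoter windows on GRCh38.p14, each 300 bases from 250 before to 50 after an annotated start, were at hand for 9 of the 10 genes. They were searched on both strands for ERSE, which is CCAAT and CCACG with 9 bases of any kind between them, and for ERSE-II, which is ATTGG and CCACG with 1 base between them. No match of the 10 genes counts for both motifs. ERSE stood in a window of 6 genes, HSPA5, HSP90B1, PDIA6, CALR, CANX and XBP1. It stood in 27 of all 35116 windows, or 0.0769%, and in 14 of the 8829 genes of the table with a window. HERPUD1 held ERSE-II, which 19 windows, or 0.0541%, contain. Matches are given with 10 bases on either side, 5′ to 3′ along the strand that carries the motif, and capitals mark the fixed letters of each motif.
HSPA5, chr9:125241381-125241419, minus strand: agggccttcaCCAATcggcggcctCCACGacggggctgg
HSP90B1, chr12:103930206-103930244, plus strand: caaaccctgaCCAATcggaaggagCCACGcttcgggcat
HSP90B1, chr12:103930311-103930349, minus strand: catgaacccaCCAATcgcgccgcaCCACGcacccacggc
PDIA6, chr2:10812843-10812881, minus strand: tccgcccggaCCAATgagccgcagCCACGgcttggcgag
CALR, chr19:12938374-12938412, minus strand: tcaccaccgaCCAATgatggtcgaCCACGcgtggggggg
CANX, chr5:179698768-179698806, plus strand: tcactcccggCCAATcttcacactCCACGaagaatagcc
XBP1, chr22:28800593-28800631, minus strand: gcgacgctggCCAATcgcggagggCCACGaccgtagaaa
HERPUD1, chr16:56932015-56932045, plus strand: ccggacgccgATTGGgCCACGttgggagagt

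The wider HSPA5 promoter is shown because it is the textbook ERSE promoter. It covers chr9:125241354-125241503 on the minus strand of GRCh38.p14, from 160 to 11 bases before the annotated start, and capitals mark the fixed ERSE letters.
HSPA5 promoter: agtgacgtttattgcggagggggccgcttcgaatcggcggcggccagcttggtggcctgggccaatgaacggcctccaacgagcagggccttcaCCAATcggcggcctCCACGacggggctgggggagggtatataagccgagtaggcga
Distances are to the annotated start whose window holds the match. Between the match and the start lay 47 bases in HSPA5 and 33 bases in XBP1. The match in CALR lay furthest out, with 206 bases between it and the start, and on the other strand. A match of letters describes the sequence and does not show that a factor bound it. Only exact matches were counted, so a site that differs in any fixed letter is neither counted nor marked. Starvation is known to act on mRNAs that begin with C and a run of pyrimidines, the 5′ terminal oligopyrimidine or TOP start, so the annotated starts were read too. None of the 15 starts of the 9 genes began with C, and 0 had a TOP start of 5 or more pyrimidines. Such a start was found in 45 of 77 windows of ribosomal protein genes (58.4%) and in 691 of 12805 windows of the table's genes (5.4%).

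In log phase the chaperone mRNAs lay apart from those of XBP1, HERPUD1 and DNAJB9. Position was the mean fraction number weighted by signal. The 7 chaperones and isomerases lay at higher-numbered fractions in log phase, from HSP90B1 at 17.68 to PDIA3 at 18.45, against a median of 16.94 over 10889 genes. XBP1, HERPUD1 and DNAJB9 lay below that median, at 16.79, 16.50 and 16.41, but with equal fraction totals XBP1 and HERPUD1 lay above it, by 0.08 and 0.0026. In both starved gradients CANX and DNAJB9 lay below the median and the other 8 above it, and with equal totals it was XBP1 and DNAJB9. The log phase order from low to high was DNAJB9, HERPUD1, XBP1, HSP90B1, PDIA4, PDIA6, CANX, CALR and HSPA5 (both 18.23) and PDIA3. Apart from the steps at either side of XBP1, neighbours in this order lay closer than the odd-numbered and even-numbered fractions of at least 1 of them. The median of the 10 was 16.60 without serum, 16.00 without amino acids and 17.87 in log phase, against 15.62, 15.12 and 16.94 over all genes.

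**Figure D1:**
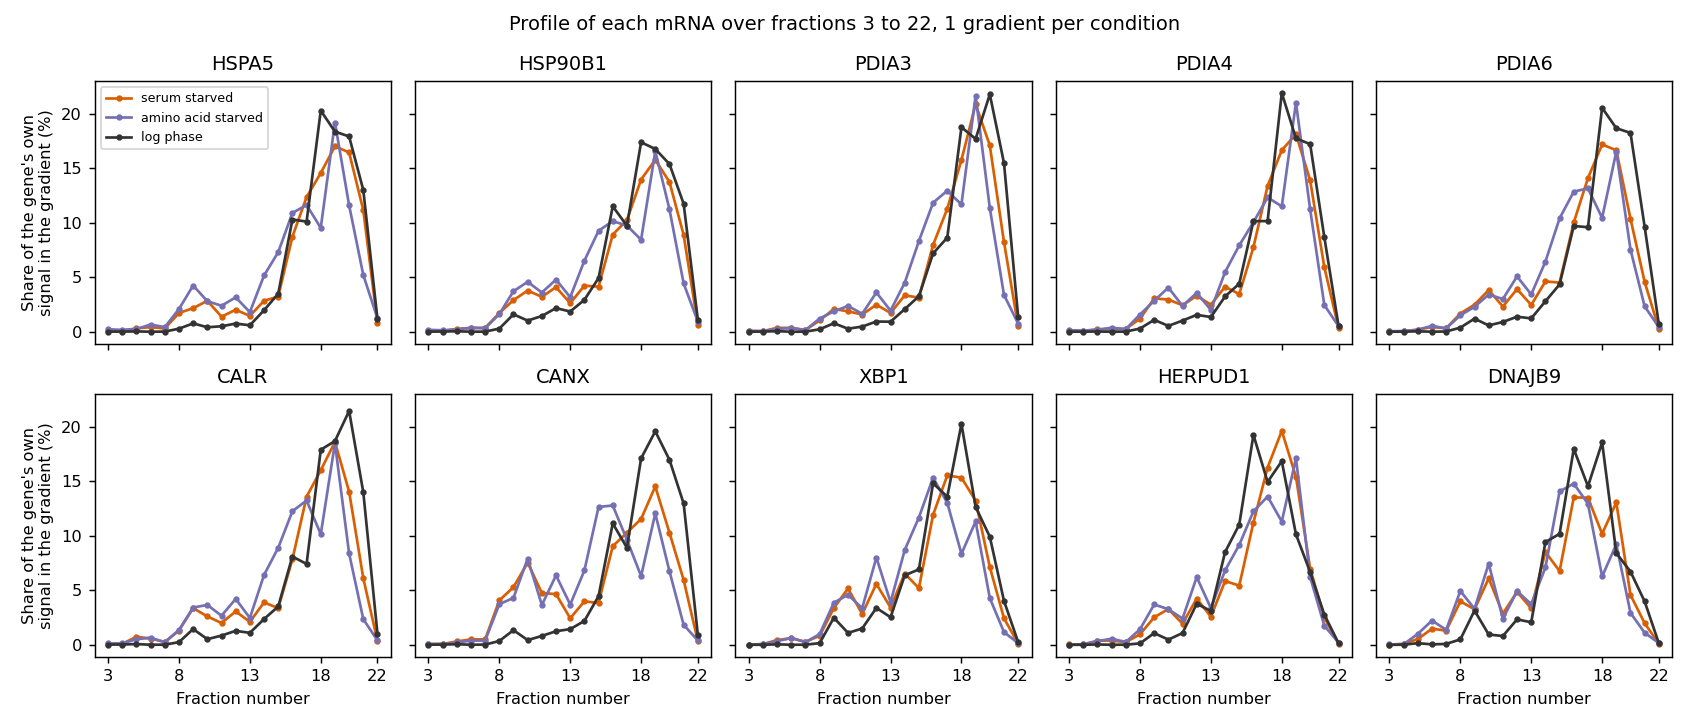
Share of each gene's own signal (percent, vertical axis) in fractions 3 to 22 (horizontal axis), with 1 line per gradient (serum starved orange, amino acid starved purple, log phase black). CANX held 26.3% of its signal in fractions 8 to 12 without serum and 26.0% without amino acids, against 4.2% in log phase, and the median gene held 22.5%, 23.1% and 7.17% there.

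HSPA5 signal was lowest at 11.7, had a median of 225 and reached 1824 over the 20 serum-starved fractions. It was 15.3, 259 and 1663 over the amino acid-starved fractions, and 2.71, 273 and 7239 over the log phase fractions. The highest value stood in fraction 19 in both starved gradients and in fraction 18 in log phase. Fractions 18 to 22 held 60.0% of HSPA5 signal without serum, 46.8% without amino acids and 70.7% in log phase. HSPA5 thus lay at a higher-numbered position than 94.3%, 89.8% and 90.6% of the tested genes in the 3 gradients.

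PDIA3, which pairs with both lectin chaperones to form disulfides in glycoproteins, had the highest position of the 10 on the authors' scale in all 3 gradients, at 17.40, 16.75 and 18.45 (serum starved, amino acid starved, log phase). With equal fraction totals HSPA5 lay above it without serum (18.57 against 18.35) and without amino acids (18.27 against 18.18). Its signal had a lowest value, median and highest value of 7.50, 307 and 3226 without serum, 8.13, 297 and 2983 without amino acids, and 1.55, 228 and 5312 in log phase. CALR had the highest mean signal of the 10 in each gradient, with a lowest value, median and highest value of 22.2, 785 and 5144 without serum, 34.5, 819 and 4968 without amino acids, and 3.93, 523 and 9412 in log phase. DNAJB9 had the lowest medians, 35.8, 27.5 and 32.9. The deposited values are named TPM, but their column totals are not those of TPM, so levels of different genes are given side by side as a description, and their order can depend on how fractions were scaled.

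XBP1 signal ranged over 0.652, 366 and 1675 (lowest, median and highest fraction) without serum, over 3.57, 628 and 2477 without amino acids, and over 0.948, 938 and 7565 in log phase. Its profile was broad, and fractions 13 to 17 held 42.6%, 52.6% and 44.2% of it. There is 1 value per gene symbol, so spliced and unspliced XBP1 mRNA were not told apart. HERPUD1 had 41.3% without serum, 45.2% without amino acids and 56.8% in log phase in fractions 13 to 17. DNAJB9 had 45.6%, 52.6% and 54.2% there. Most of the remaining XBP1 and HERPUD1 signal lay in fractions 18 to 22, which held more of XBP1 in log phase (47.1%) and more of HERPUD1 without serum (44.6%) than fractions 13 to 17 did.

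**Figure D2:**
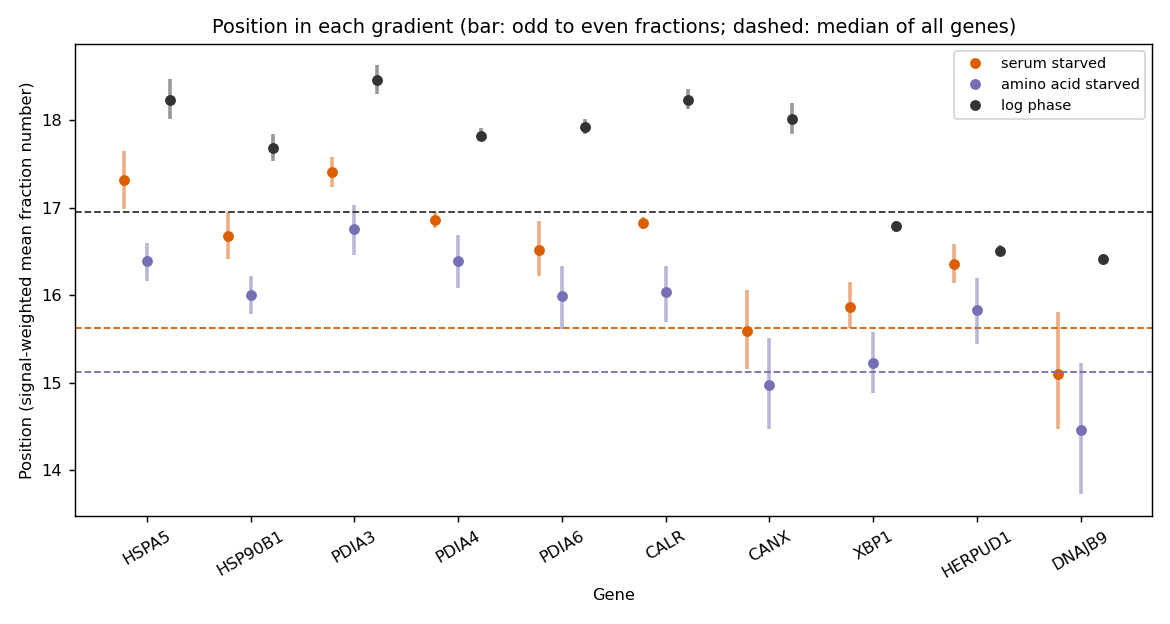
Position of each gene (mean fraction number weighted by signal, vertical axis) in the serum-starved, amino acid-starved and log phase gradients, with a bar from odd-numbered to even-numbered fractions and a dashed line at the median of all genes per gradient. On the authors' scale HERPUD1 stood at 16.35, 15.83 and 16.50, the smallest spread of the 10, and CANX at 15.59, 14.97 and 18.02. This contrast was not kept with equal fraction totals, where HERPUD1 stood at 16.34, 16.55 and 14.22 and CANX at 16.50, 16.39 and 15.53.

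These positions use the authors' scale of the fractions. With all fractions set to an equal total, HSPA5 was most enriched in fraction 22 in each gradient, with 476, 432 and 263 per 1000000 of the fraction's signal (serum starved, amino acid starved, log phase). PDIA3 and HSP90B1 also peaked in fraction 22 in all 3. That fraction had the lowest total of both starved gradients, 179014 without serum and 247998 without amino acids. It held 0.80%, 1.24% and 1.14% of HSPA5 signal on the authors' scale, and how deeply it was sequenced is unstated. XBP1 was highest in fraction 18 without serum (126 per 1000000), in fraction 16 without amino acids (222) and in fraction 18 in log phase (113). HERPUD1 was highest in fractions 18, 19 and 15, with 134, 187 and 77.9 per 1000000. With equal totals 8, 8 and 9 of the 10 lay above the median position of all genes, against 8, 8 and 7 on the authors' scale.

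Profiles of log2 signal per 1000000 over the 60 fractions were then correlated between genes. Between the 7 chaperones and isomerases, Pearson's r ran from 0.831 to 0.984 in 21 pairs (median 0.937). Between those 7 and XBP1, HERPUD1 or DNAJB9 it ran from 0.495 to 0.878 (median 0.735). DNAJB9 had r = 0.721 with XBP1 and 0.757 with HERPUD1. XBP1 and HERPUD1 had r = 0.943, and 84 of 10888 genes were more like XBP1 than HERPUD1 was. All points share 60 libraries and the common shape of the gradients, and the median gene already had r = 0.707 with HSPA5 and 0.743 with XBP1. The 5 genes most like HSPA5 were EZR (0.972), STAU1, CALD1, AATF and VARS (0.962). For XBP1 they were TMEM237 (0.975), PFN2, ZFAND6, OAF and CENPU (0.968). For HERPUD1 they were TRIB3 (0.966), a pseudokinase gene induced by ATF4, and FYN, ACP6, GABARAPL1 and TFDP2 (0.955).

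The serum-starved gradient was set against log phase to show where each mRNA moved relative to other mRNAs. A shift was the difference in position minus the median difference over all 10889 tested genes, which was -1.35 fractions on the authors' scale. With equal fraction totals that median was 1.545, of the other sign, and shifts given for equal totals are relative to it. The direction in which most genes moved thus depended on the scale. A rule of size, without a test behind it, asked for 1 fraction or more, with 0.5 or more in the same direction in odd-numbered and in even-numbered fractions. HERPUD1 had a shift of 1.19 (odd 1.14, even 1.24) and CANX one of -1.08 (odd -1.01, even -1.14), so 1 of the 10 met the rule upwards and 1 downwards. Over all genes 5.7% met it upwards and 9.86% downwards, so 1 of 10 is near the background in either direction. The median shift of the 10 was 0.32, against 0 over all genes by construction. The other 8 lay between -0.06 (CALR) and 0.43 (HSPA5 and XBP1).

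CANX signal was 7.66, 422 and 1406 (lowest, median and highest) without serum, against 1.70, 209 and 3160 in log phase. Its position was 15.59 without serum and 18.02 in log phase, so it stood above 49.1% of genes in the first gradient and above 85.3% in the second. Fractions 18 to 22 held 42.6% of CANX signal without serum, against 67.5% in log phase. The shift was below the rule without fraction 8 (-0.95), 10 (-0.92), 11 (-0.98) or 21 (-0.99), and at -0.58 with equal fraction totals. CALR, the soluble counterpart, had 55.1% in those fractions without serum and 73.0% in log phase, with a shift of -0.06.

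HERPUD1 signal was 3.22, 229 and 1761 without serum, against 0.163, 411 and 4110 in log phase. On the authors' scale it stood at 16.35 without serum and 16.50 in log phase, a difference of -0.16 before centring while the median gene differed by -1.35. Fractions 18 to 22 held 44.6% of it without serum and 36.6% in log phase, against 39.1% and 48.5% for the median gene. On that scale HERPUD1 was alone among the 10 in having the larger share there without serum. With equal fraction totals its position was 14.22 in log phase and 16.34 without serum. That of HSPA5 rose likewise, from 16.36 to 18.57. The shift of HERPUD1 was 0.58 with equal fraction totals. DNAJB9 had a shift of 0.03 that differed between odd (0.59) and even (-0.45) fractions, and stood at 1.65 with equal totals.

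**Figure D3:**
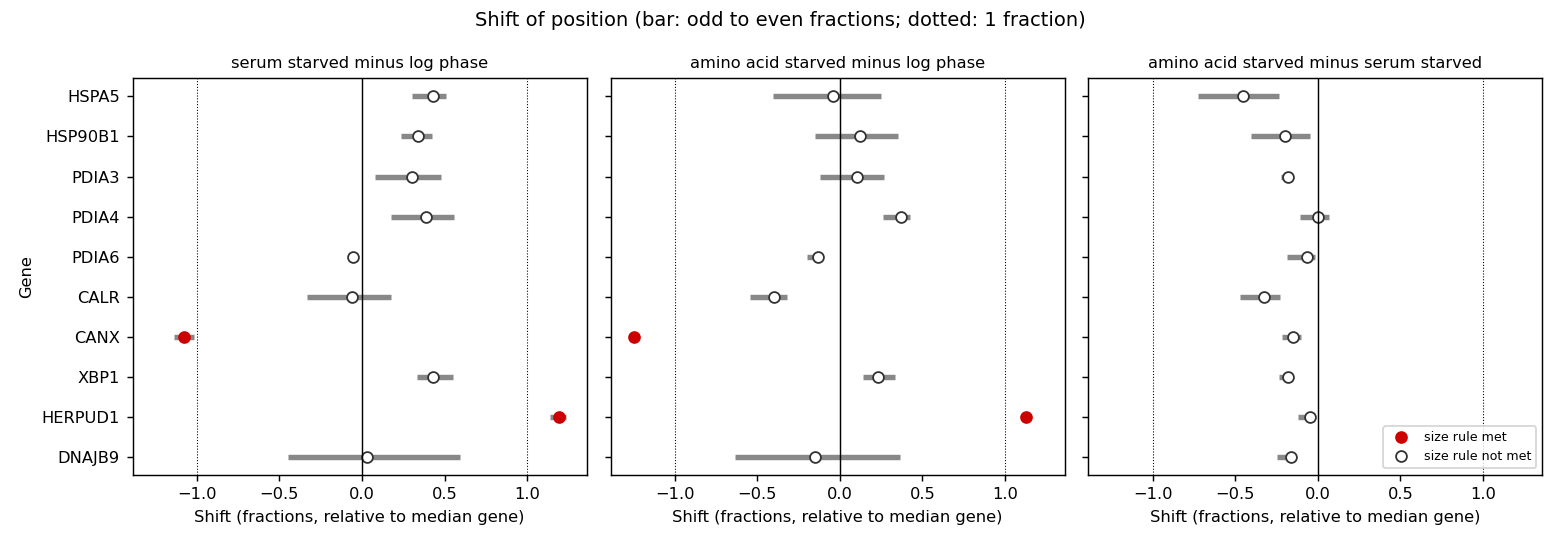
Shift of position in fractions relative to the median gene (horizontal axis) for each gene in 3 contrasts, with a grey bar from odd-numbered to even-numbered fractions and dotted lines at 1 fraction. Filled red points met the size rule: HERPUD1 at 1.19 and 1.13 and CANX at -1.08 and -1.25 against log phase.

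Amino acid starvation was set against the same log phase gradient, so both comparisons share their control and are not independent. The median gene lay at -1.80 fractions before centring on the authors' scale, and at 1.72 with equal fraction totals. HERPUD1 had a shift of 1.13 (odd 1.10, even 1.10) and CANX one of -1.25 (odd -1.22, even -1.26), again 1 of 10 in each direction, against 6.84% of all genes upwards and 9.57% downwards. The median shift of the 10 was 0.03. The other 8 lay between -0.40 (CALR) and 0.37 (PDIA4), and HSPA5 was at -0.04.

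CANX signal was 7.14, 435 and 1382 without amino acids, with the highest value in fraction 16, against fraction 19 in log phase. Its position was 14.97 without amino acids and 18.02 in log phase, and it stood above 45.1% of genes without amino acids. CANX had 27.3% of its signal in fractions 18 to 22 without amino acids, against 67.5% in log phase. HERPUD1 signal was 3.13, 399 and 2061, its position was 15.83, and fractions 18 to 22 held 36.6% of it, the same share as in log phase. The HERPUD1 shift was 0.99 without fraction 19, 0.95 with spike-in scaling and 0.61 with equal totals. CANX was at -1.44 and -0.86 in the last 2 settings.

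Levels were compared as signal summed over fractions per 1000000 of the gradient's total, on the log2 scale with a pseudocount of 1. They were taken relative to the median ratio over genes that reached a level of 5 in at least 1 of both gradients. That median was -0.43 without serum and -0.59 without amino acids, so values before centring are lower by that much. The rule of size for levels was a log2 ratio of 1, with 0.5 in the same direction in odd-numbered and in even-numbered fractions. In bulk gradients of this kind, fewer cells and less RNA per cell cannot be told apart.

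Without serum, 3 of the 10 met the rule, all higher, against 3.06% of 8199 genes higher and 0.903% lower. PDIA3 had a level of 94.8 without serum and 62.5 in log phase, a log2 ratio of 1.03. PDIA6 had 105 and 70.5 (1.00), and CALR 170 and 112 (1.02). Odd-numbered and even-numbered fractions alone gave 1.00 and 1.05 for PDIA3, 0.98 and 1.03 for PDIA6, and 1.02 and 1.02 for CALR. DNAJB9 (0.97), CANX (0.94), HSP90B1 (0.65), HERPUD1 (0.44) and PDIA4 (0.39) were higher but under the rule. DNAJB9 had levels of 5.99 without serum and 3.82 in log phase, so it passed the minimum of 5 only through the gradient where it was higher. With a pseudocount of 10 its ratio was 0.48. HSPA5, with a level of 65.7 without serum and 91.4 in log phase, was at -0.04, and XBP1, with 66.1 and 95.6, at -0.10. The median of the 10, with DNAJB9 counted, was 0.79, or 0.36 before centring. Without DNAJB9 the middle value was that of HSP90B1 (0.65).

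The 3 calls lie close to the rule. PDIA3 was under it without fraction 15 (0.98), 16 (0.92), 17 (1.00) or 19 (0.97). PDIA6 was under it without fraction 13, 14, 15, 16, 17 or 18, and lowest without fraction 16 (0.90). CALR was under it without fraction 14, 15, 16, 17 or 18, and lowest without fraction 16 (0.93). CANX met the rule without fraction 19 (1.03), 20 (1.01) or 21 (1.01), and DNAJB9 without fraction 9, 17 or 18 (1.03 at most). Before centring PDIA3 and CALR were at 0.59 and PDIA6 at 0.57. With equal fraction totals, which do not use the authors' scale, PDIA3 was at 1.22, CALR at 1.09 and PDIA6 at 1.05. HSPA5 was at 0.41 there, and its direction flipped with that scaling.

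**Figure D4:**
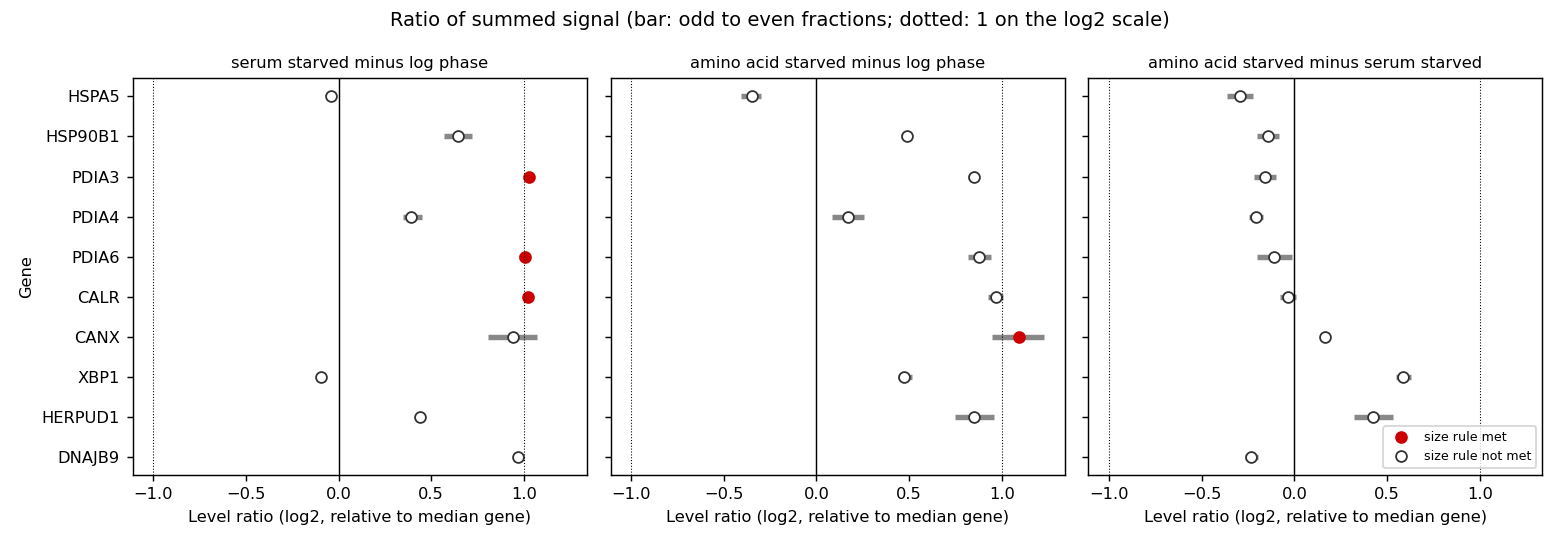
Log2 ratio of summed signal relative to the median gene (horizontal axis) for each gene in 3 contrasts, with a grey bar from odd-numbered to even-numbered fractions and dotted lines at 1. DNAJB9 is missing from the middle panel because its level was under 5 in both gradients. PDIA3 (1.03), PDIA6 (1.00) and CALR (1.02) met the size rule without serum, and CANX (1.09) without amino acids.

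Without amino acids, 1 of the 9 genes with enough signal met the rule, against 4.96% of 8202 genes higher and 2.84% lower. It was CANX, with a level of 59.0 without amino acids and 41.3 in log phase (1.09, or 0.50 before centring). With spike-in scaling CANX was under the rule (0.95), and HERPUD1 met it (1.04). CALR (0.97), PDIA6 (0.88), PDIA3 (0.85) and HERPUD1 (0.85) came next. XBP1 was at 0.47 (88.2 without amino acids, 95.6 in log phase, -0.12 before centring) and HSPA5 at -0.35 (47.3 and 91.4). HSPA5 turned to 0.24 with equal fraction totals. CALR met the rule without fraction 20 (1.11) or 21 (1.07). DNAJB9 had levels of 4.27 and 3.82 and was left out. The median of the 9 was 0.85, or 0.26 before centring.

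The authors' scale does not touch the part of a fraction's own signal that a gene takes, so genes were also compared fraction by fraction per 1000000 of it. The count over fractions 18 to 22 was added after the values had been seen. In serum-starved cells 9 of the 10 were higher than in log phase in each of these 5 fractions, as were 36.6% of all genes, and XBP1 was higher in 4. In amino acid-starved cells 9 of the 10 were higher in each, as were 35.9% of all genes, and HSPA5 was higher in 3. In fraction 19, PDIA3 had 278 per 1000000 without serum, 271 without amino acids and 103 in log phase. CALR had 444, 451 and 195 there, and HSPA5 157, 151 and 156. Other fractions differed from this one. Lower values in both starvations stood in fraction 8, with 12.2, 11.2 and 14.6 for PDIA3 in the same order. There CALR had 27.5, 24.4 and 28.2, and HSPA5 14.0, 12.1 and 26.6. Without serum the 10 were higher than in log phase in 7 (XBP1) to 16 (DNAJB9) of 20 fractions. Without amino acids they were higher in 8 (HSPA5) to 15 (CANX). The median gene was higher in 7 and 8. In fraction 22, which had the lowest total of both starved gradients, PDIA3 had 451, 417 and 218. CALR had 548, 441 and 286 there, and HSPA5 476, 432 and 263.

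The starved gradients were then set against each other. None of the 10 met the shift rule, with shifts between -0.45 (HSPA5) and 0.00 (PDIA4), against 2.01% of genes upwards and 1.06% downwards. None met the level rule, against 0.187% higher and 0.0401% lower. XBP1 had the largest level difference of the 10, with 88.2 without amino acids and 66.1 without serum, a log2 ratio of 0.58 (odd 0.63, even 0.55, 0.41 before centring). HERPUD1 followed with 65.8 and 55.0 (0.43). CANX was at 0.17, and the 7 others were between -0.29 (HSPA5) and -0.03 (CALR).

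XBP1 was higher per 1000000 without amino acids than without serum in 19 of 20 fractions and HERPUD1 in 17. A minimum of 17 of 20, chosen after these values were seen, was reached by 2.53% of all genes and by no other of the 10. Against log phase 0 of the 10 reached it, while 2.42% of all genes did without serum and 2.2% without amino acids. XBP1 and HERPUD1 were also the 2 of the 10 that were higher without amino acids than without serum in each of fractions 18 to 22, as were 14.5% of all genes. In fraction 15, XBP1 had 205 per 1000000 without amino acids and 91.7 without serum, and in fraction 19 it had 166 and 123. HERPUD1 had 187 and 119 in fraction 19. HSPA5 was higher without amino acids in 7 of 20 fractions, CALR in 11 and DNAJB9 in 4. Fractions of 1 gradient are not replicates.

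**Figure D5:**
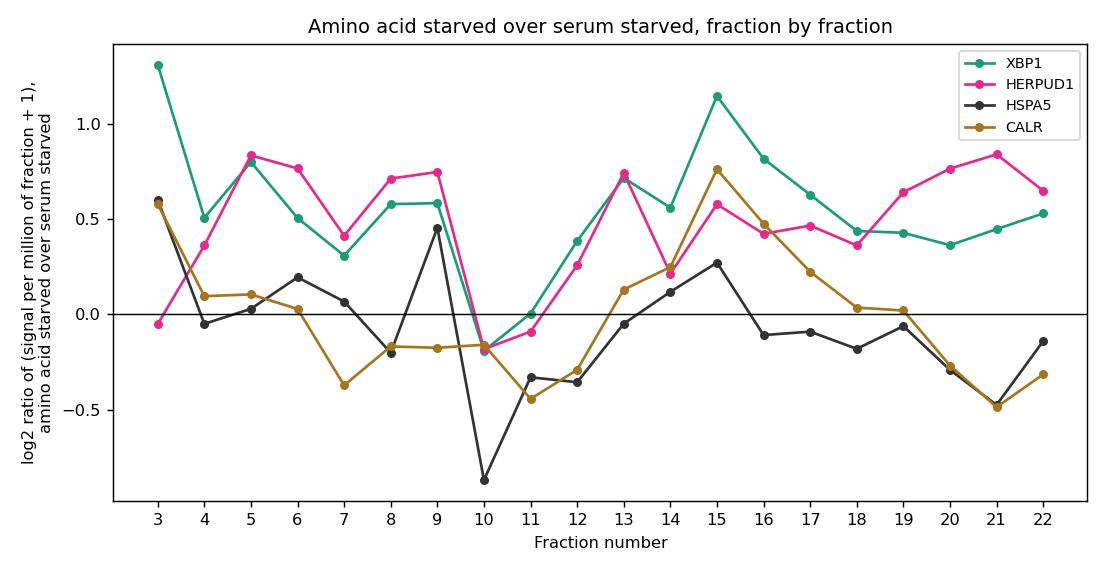
Log2 ratio of signal per 1000000 of the fraction plus 1, amino acid starved over serum starved (vertical axis), in each fraction (horizontal axis) for XBP1, HERPUD1, HSPA5 and CALR. XBP1 lies above 0 in 19 of 20 fractions and HERPUD1 in 17, against 7 for HSPA5 and 11 for CALR.

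Further genes of the pathway were taken from lists by function. Among 28 further folding factors of the endoplasmic reticulum, 1 was lower and 0 higher by the shift rule without serum, namely ERP29 (-1.06), against 5.7% of all genes higher and 9.86% lower. Without amino acids ERO1A, which supplies oxidizing power to the isomerases, was higher (1.00, but -0.80 before centring), while ERP29 (-1.18) and P4HB, a further isomerase (-1.11), were lower. With equal fraction totals ERP29 was at -0.50 without serum and -0.57 without amino acids, and ERO1A at 0.30, all under the rule, and P4HB at -1.40. Their median level ratio was 0.32 in both starved gradients. By the level rule 4 of 26 were higher without serum, against 3.06% of all genes, led by ERP29 (1.30) and QSOX1 (1.25). Without amino acids 3 of 26 were higher, against 4.96% of all genes, led by ERP29 (1.28) and P4HB (1.22). PPIB, the most abundant of these folding factors, was at 0.83 without serum and 0.77 without amino acids. The medians were -0.11 and -0.27 before centring.

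Genes that degrade misfolded proteins had a median level ratio of 0.27 without serum. There 1 of 19 was higher (OS9, a lectin, 1.16), against 3.06% of all genes. Without amino acids the median was 0.10, with 0 of 19 past the rule, against 4.96% of all genes higher and 2.84% lower. The median shifts of the degradation genes were 0.00 in both starvations. EDEM1, which also acts on glycoproteins, had a shift of 1.06 without amino acids relative to serum starvation, the 1 of 21 that met the rule there, against 2.01% of all genes. It was at 0.44 with equal fraction totals and 0.60 before centring, both under the rule. Of 16 sensors and regulators 15 were measured, and ERN1, the gene of IRE1, was not analysed here. Their median level ratio was 0.29 without serum, with 2 of 13 higher by the rule, against 3.06% of all genes. Without amino acids it was 0.22, with 3 of 13 higher, against 4.96% of all genes. DDIT3, the transcription factor CHOP, had level ratios of 1.40 without serum and 2.09 without amino acids, and ATF4, the transcription factor made when PERK or an amino acid sensor slows translation, 1.15 and 1.77. With equal fraction totals DDIT3 was at 0.41 and 0.77 and ATF4 at 0.01 and 0.39. Shifts in that list split, with NFE2L2 (1.41) and CREB3L2 (1.20) higher and ATF4 (-1.16) and PPP1R15B (-1.02) lower without serum. With equal fraction totals NFE2L2 was at 0.53, ATF4 at -0.53 and PPP1R15B at -0.58, under the rule, and CREB3L2 at 1.79. Before centring CREB3L2 was at -0.15 and NFE2L2 at 0.06.

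Among 29 genes that move proteins into the endoplasmic reticulum and trim them, 5 were lower by the shift rule without serum, led by SEC11A, a signal peptidase subunit (-2.23), and SSR2, of the translocon-associated complex (-1.80), against 9.86% of all genes lower. Without amino acids 5 were again lower, led by SEC11A (-2.35) and SSR2 (-2.16), and SPCS1 was higher (1.19), against 9.57% of all genes lower and 6.84% higher. With equal fraction totals SEC11A was at -1.12 without serum and -1.38 without amino acids. DDOST, an oligosaccharyltransferase subunit, had level ratios of 1.34 and 1.42, and SRP54, of the signal recognition particle, ones of -1.03 and -1.19, which turned to 0.03 and 0.35 with equal totals.

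Chaperones outside the endoplasmic reticulum had a higher median position than the 10 in log phase, at 18.64 for 16 cytosolic and mitochondrial ones and 18.79 for 8 chaperonin subunits, against 17.87. Their median shifts were -0.32 and -0.70 without serum and -0.42 and -0.96 without amino acids, against 0.32 and 0.03 for the 10. Of the 16, 1 was higher and 6 were lower by the shift rule in each starvation, and of the 8 chaperonin subunits 3 were lower without serum and 4 without amino acids. Over all genes 5.7% were higher and 9.86% lower without serum, and 6.84% and 9.57% without amino acids. The higher one of the 16 was DNAJB6, a J-domain protein, at 1.98 and 2.03. HSP90AA1, a cytosolic Hsp90 and the most abundant of the 16, was at 0.72 and 0.56, which turned to -0.67 and -0.52 with equal totals. HSPA8, the cytosolic relative of HSPA5, had shifts of -3.35 and -3.11, and HSP90AB1, the other cytosolic Hsp90, ones of -2.03 and -1.99. HSPA5 was at 0.43 and -0.04 and HSP90B1 at 0.34 and 0.12. CCT3, a chaperonin subunit, had shifts of -2.33 and -2.77. With 1 gradient per condition the difference between these lists could not be tested.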

How the data were processed

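Poly(A)-selected RNA of 60 gradient fractions was analysed, 20 per condition, and the 3 lysate samples were not analysed here. Per the submitters' processing notes, the authors used kallisto 0.44.0 and sleuth 0.29.0 with hg38. The deposited signal, named TPM by the authors, has 1 value for each symbol in each fraction, with column totals too uneven for TPM. How fractions were scaled and how deep libraries were is unstated, so no counting error was attached. The 29 ERCC rows and 1 luciferase row, which are spike-ins, were left out of totals. RefSeq GRCh38.p14 supplied coordinates and promoters. RefSeq lists pseudogene copies of HSPA5, HSP90B1, PDIA3 and XBP1, and how their reads were shared was not tested.

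Positions were computed for genes averaging at least 5 in all 3 gradients and detected in 15 or more fractions of each. Calculations used Python 3.11.15, numpy 2.4.6 and pandas 2.3.3, and were tested on simulated data. Alternatives were equal fraction totals, spike-in scaling, log2 weights, fewer fractions, no centring, other filters and a pseudocount of 10. All 10 genes were named. From other lists the most abundant gene and the 2 largest differences in each direction past the size rule were eligible. For likeness, 5 genes were named for each of HSPA5, XBP1 and HERPUD1. The members and lists were chosen with earlier results of these data known. The planned lysate comparison was not run.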

Additional observations from a re-analysis of the deposited data

Results flagged for a closer look

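XBP1 had level ratios to log phase of opposite sign in the starvations, at 0.47 without amino acids and -0.10 without serum, in odd and even fractions alike. The direct difference was 0.58 on the log2 scale, amino acid starved over serum starved. The difference was not tested, since there was 1 gradient per condition. Before centring both ratios were below 0, at -0.12 and -0.53.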

How the results depend on the processing

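For serum starvation against log phase, 2 of the 10 genes met the shift rule, and 1 did with equal fraction totals (DNAJB9, in place of HERPUD1 and CANX), 1 with spike-in scaling (CANX), 1 without the outermost fractions (HERPUD1), 0 with log2 weights and 6 without centring, all lower. Leaving out 1 fraction at a time gave 1 to 2. For amino acid starvation, 2 met it, and 1 did with equal totals (DNAJB9), 1 with spike-in scaling (CANX), 1 without the outermost fractions (CANX), 0 with log2 weights and 9 without centring. Leaving out 1 fraction gave 1 to 2. HERPUD1 was at -0.16 and -0.67 without centring. For levels without serum, 3 met the rule, and 1 did with spike-in scaling (PDIA3), and 0 with a pseudocount of 10, without centring or without a minimum level. Leaving out 1 fraction gave 0 to 4. Without amino acids, 1 met it, and 5 did with equal totals (PDIA3, PDIA6, CALR, CANX and HERPUD1), 1 with spike-in scaling (HERPUD1, while CANX was at 0.95), and 0 with a pseudocount of 10, without centring or without a minimum level. Leaving out 1 fraction gave 1 to 2. The counts between the starvations were 0 in every setting run. The median position of the 10 in log phase was 17.87, with 15.48 for equal totals and 14.80 for log2 weights. The cause of these changes was not tested. Of 1505 values of single genes under the alternatives, 1190 moved by no more than odd and even fractions differed, 313 moved further and 2 changed sign after meeting the rule. No paired analysis was possible because each condition has 1 gradient and the result comes from no test.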

Other observations

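DNAJB9 had its highest signal per 1000000 of the fraction in fraction 7 in serum-starved cells (14.6) and in log phase (18.8), and in fraction 15 without amino acids (11.9). Fractions 6 and 7 hold the lowest totals of the log phase gradient, and how deeply they were sequenced is unstated.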
